A study of Mus musculus with 24 samples.

Results

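The 33 genes described here are imprinted genes of the mouse, listed by name, and all 33 were found by gene symbol among the 22529 genes of a table of embryonic cortical tissue. RNA was measured by polyA-selected RNA-seq in 24 libraries that form 8 groups of 3, lettered A, B and C. The tissue was dissected from the ventricular zone of the cortex of C57BL/6 embryos at embryonic day 11.5 (E11.5), and likewise at E13.5, at E15.5 and last at E17.5, and on each day a conditional knockout of Prdm16 (cKO) was set against wild type (WT). Prdm16 encodes a zinc finger transcription factor of cortical radial glia, and the Cre driver that removes it was not stated in the labels. The labels speak of pairs of embryos but do not say what makes a pair or whether a library pools embryos, so every p-value reflects variation among these libraries, which may be technical in part.

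Imprinted genes are read mainly or wholly from the copy inherited from one parent, because a methylated control region was set differently in egg and sperm. Many lie in clusters that share a control region and hold both protein-coding genes and long non-coding RNAs. Genes read from the paternal copy often promote fetal growth and those read from the maternal copy often restrain it, and in the brain several act in neuron maturation. By this background 19 of the 33 genes were listed as expressed from the paternal copy and 12 from the maternal copy. The other 2 (Grb10 and Gnas) were listed under a copy that depends on the tissue. The expressed copy was not measured in this tissue, and it may depend on tissue in other listed genes too. Counts by copy below use this listing. The embryos were of 1 inbred strain, so the reads do not tell the copies apart and every value below is the sum of both.

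Values are reads per gene divided by 1 size factor for each library, called normalized reads below. Of the 33 genes, 32 passed the filter of at least 3 libraries with a value of 10 or more. The gene that did not pass was Phlda2, a pleckstrin homology protein that restrains placental growth, whose highest value in any library was 3.86. Differences are on the scale of log2(value + 1), with standard errors, and were tested with limma over all 17518 genes that passed the filter, with a Benjamini-Hochberg adjusted p under 0.05 as the threshold.

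Some libraries stand apart. Library depth ran from 25639836 to 38879931 reads. In 5 libraries lettered C (both groups at E11.5, both at E15.5, and the cKO group at E13.5) the values lay near a weighted sum of libraries A and B of the same group, with a median squared residual of 0.571 to 0.891 times the counting variance, against 2.24 to 3.81 in the other 3 groups and 0.455 for counting error alone. Results are therefore also given without these 5 libraries. WT E15.5 libraries B and C carried more of the markers of non-neural tissue than the other E15.5 libraries. Their summed level of 14 meninges and fibroblast genes was 124561 in B and 63202 in C, against 5703 in WT library A and 5151 to 5635 in the cKO E15.5 libraries. Krt5, a keratin of basal epidermis, was at 6658 in B and 3311 in C, and at 1.95 in A. The meninges and fibroblast sum was also high on earlier days, at 24425 to 54969 in WT E13.5 and 22040 to 45995 in cKO E13.5. At E11.5 it was 33796 to 46947 in WT and 29932 to 33727 in cKO. WT E17.5 library C stood apart too, with 2929 summed over 12 epidermis genes, against 681 in A and 649 in B. Its red blood cell genes summed to 22683, against 10699 in A and 11954 in B. Prdm16 had 868 to 1397 normalized reads in cKO and 2030 to 2206 in WT at E11.5, 1784 to 1936 in cKO and 4772 to 6369 in WT at E13.5, and 2025 to 2458 in cKO and 2504 to 2632 in WT at E15.5. It went against the labels at E17.5, with 2983 to 3866 in the libraries labelled cKO and 2000 to 2070 in those labelled WT. The E17.5 groups are therefore called by their labels, and no direction at E17.5 is read as an effect of losing Prdm16. Markers of ventricular zone radial glia and of postmitotic neurons had reads in every group.

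Measured per kilobase of merged exons, Nnat (neuronatin, a small membrane proteolipid abundant in the developing nervous system) had the highest level of the 33 genes in WT at both ends of the course. It had 15575 reads per kilobase in WT E17.5 and 19235 in WT E11.5. In WT E17.5 it was followed by Peg13 with 3352, Snrpn with 3168, Ndn with 1952 and Mest with 749 reads per kilobase. In WT E11.5 it was followed by H19 with 7400, Mest with 4678, Grb10 with 3652 and Igf2 with 2344 reads per kilobase, so Nnat and Mest alone were among the first 5 on both days. The low end at E17.5 held Slc38a4 with 8.94, Kcnq1ot1 with 5.53 and Dcn with 5.40 reads per kilobase.

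**Figure D1:**
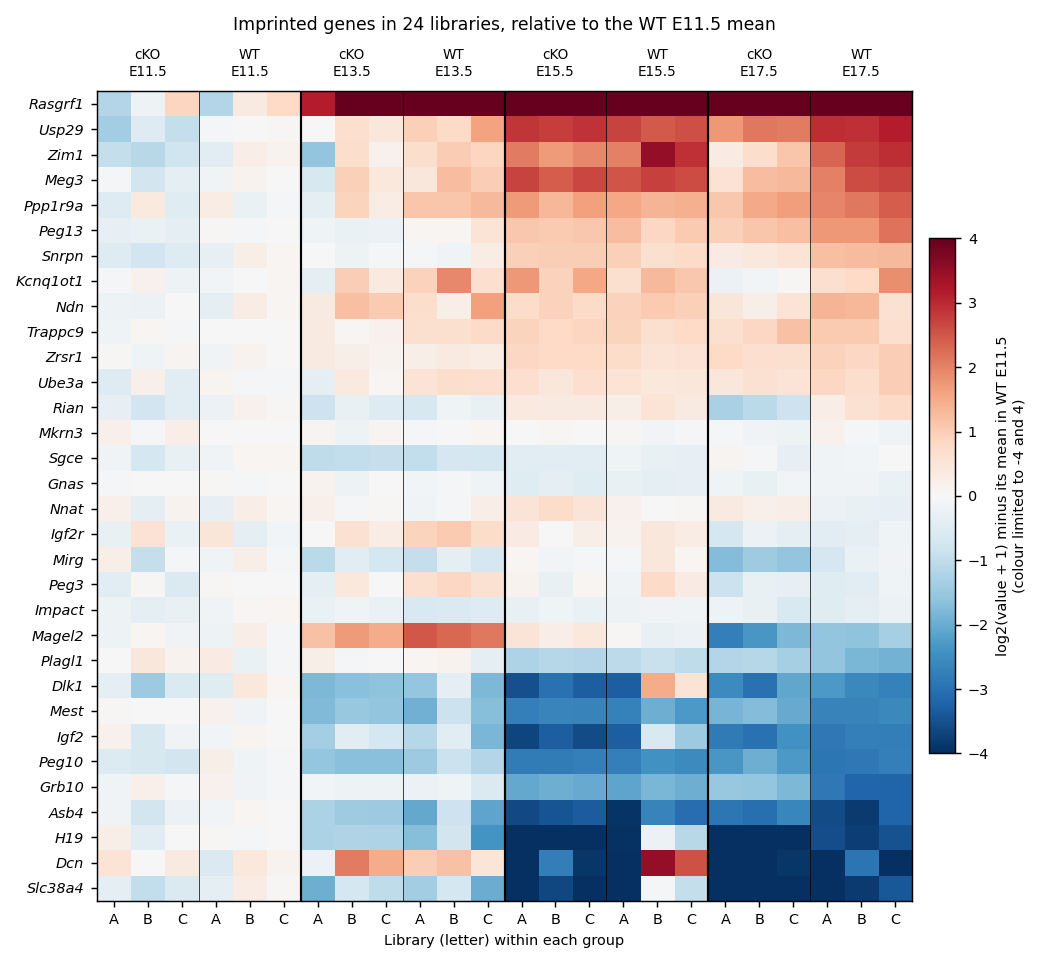
The 32 tested genes (rows, ordered by the WT difference of E17.5 minus E11.5) in the 24 libraries (columns, cKO left of WT on each day, by label). Colour is log2(value + 1) minus the gene's mean in WT E11.5. The upper rows rise with age and the lower rows fall, and WT E15.5 libraries B and C depart from library A in the lowest rows.

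Across the WT course, with the E17.5 libraries taken by their label, these genes split evenly. Prdm16 goes against that label, so each difference that uses WT E17.5 holds only as far as the label does. Of the 32 tested, 13 were higher and 13 were lower at E17.5 than at E11.5, with a median difference of -0.23 beside 0.02 over all genes tested. Over all genes, 74.9% passed the threshold in this comparison (38.4% higher and 36.4% lower), so a high share of calls is the background. Without the 5 C libraries 13 were higher and 11 lower, beside 66.5% of all genes, with Gnas (limma adjusted p = 0.14) and Dcn (0.076) no longer past the threshold. The 6 genes that did not pass it were Mirg, Peg3, Mkrn3, Sgce, Igf2r and Nnat. Of the 19 paternally expressed genes 7 rose and 8 fell, and of the 11 tested maternally expressed genes 6 rose and 3 fell.

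H19 and Igf2 were among the genes that fell. H19, a non-coding RNA that hosts a microRNA and shares enhancers with Igf2 (chr7:142575529-142578143, minus strand, GRCm38), had 18930, 17658 and 18022 normalized reads in WT E11.5 libraries A, B and C. It had 5566, 10820 and 3462 in WT E13.5, 1176, 15576 and 8375 in WT E15.5, and 1540, 1347 and 1631 in WT E17.5. The E11.5 libraries were above all of those at E17.5, and the E15.5 libraries B and C lay between those levels while library A lay below the E17.5 libraries. The difference of E17.5 minus E11.5 was -3.60 ± 0.57 (limma adjusted p = 9.1e-06). Igf2, the insulin-like growth factor 2 ligand that lies beside H19 on the same strand (chr7:142650766-142666816), had 12348, 14446 and 13454 in WT E11.5 and 6090, 9700 and 3739 in WT E13.5. It had 1347, 8766 and 4912 in WT E15.5, and 1836, 2005 and 1983 in WT E17.5. The ligand thus followed its neighbour in its drop and in its high E15.5 libraries B and C, with a difference of -2.79 ± 0.44 (adjusted p = 1.1e-05). Igf2r, the receptor that takes IGF2 to the lysosome, did not pass the threshold over the whole course (-0.32 ± 0.22, limma adjusted p = 0.20), although its mean of 6187 at E13.5 was above 3421 at E11.5 (0.90 ± 0.22, adjusted p = 0.0022).

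Grb10 encodes an adaptor that dampens signalling from the insulin and IGF1 receptors. It had 37366, 30114 and 32102 normalized reads in WT E11.5, 28207, 29161 and 22261 in WT E13.5, 7742, 9279 and 8453 in WT E15.5 and 4508, 3700 and 3562 in WT E17.5. Every step passed the threshold, but that from E11.5 to E13.5 did not without WT E11.5 library A (limma adjusted p = 0.12) or WT E13.5 library C (0.16). The whole difference was -3.08 ± 0.12 (limma adjusted p = 2.7e-14). Plagl1, a zinc finger transcription factor that binds at other imprinted genes, had 18429, 12233 and 13799 in WT E11.5, 15360, 16128 and 11102 in WT E13.5, 7100, 7867 and 7171 in WT E15.5 and 4855, 4108 and 3919 in WT E17.5 (-1.77 ± 0.15, adjusted p = 1.1e-09). Its libraries overlapped between E11.5 and E13.5 and separated after that. Mest, which encodes an enzyme of the alpha/beta hydrolase fold, had 20542, 16576 and 18248 in WT E11.5, 4862, 10186 and 5641 in WT E13.5, 2807, 4730 and 3767 in WT E15.5 and 2910, 2868 and 3085 in WT E17.5 (-2.64 ± 0.19, limma adjusted p = 1.4e-10). Most of its drop came before E13.5, earlier than that of Plagl1.

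Peg10, a gene derived from a retrotransposon that is needed for the placenta, had 10198, 7594 and 8285 normalized reads in WT E11.5 and 3152, 4763 and 3819 in WT E13.5. It had 1299, 1596 and 1467 in WT E15.5 and 1169, 1176 and 1288 in WT E17.5, a difference of -2.83 ± 0.13 (limma adjusted p = 1.6e-13). Asb4, which encodes a SOCS box protein and lies downstream on the same strand, had 664, 753 and 723 in WT E11.5, 170, 402 and 163 in WT E13.5, 45.9, 112 and 85.2 in WT E15.5, and 58.8, 49.3 and 76.3 in WT E17.5 (-3.54 ± 0.30, adjusted p = 1.3e-09). Dlk1, a membrane protein related to Notch ligands, had 842, 1569 and 1244 in WT E11.5, 406, 910 and 339 in WT E13.5, 120, 3299 and 1724 in WT E15.5 and 241, 196 and 179 in WT E17.5 (-2.53 ± 0.73, limma adjusted p = 0.0039). All 3 genes were lower at E17.5 than at E11.5 with no overlap between libraries, and Dlk1 alone of them had E15.5 libraries above its E11.5 range.

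The remaining genes that fell by more than 1 are of different kinds. Slc38a4, an amino acid transporter, had 445, 700 and 585 normalized reads in WT E11.5, 216, 350 and 143 in WT E13.5, 19.5, 552 and 295 in WT E15.5 and 21.4, 39.4 and 53.5 in WT E17.5 (-3.95 ± 0.74, limma adjusted p = 7.6e-05). Dcn, which encodes the matrix proteoglycan decorin of connective tissue, had 264, 529 and 436 in WT E11.5, 786, 889 and 549 in WT E13.5, 6.84, 4520 and 2302 in WT E15.5 and 19.2, 51.5 and 23.9 in WT E17.5 (-3.73 ± 1.46, adjusted p = 0.026), a call not made without WT E11.5 library B or C or WT E17.5 library A or C (adjusted p up to 0.070). In both, WT E15.5 libraries B and C were far above library A, and the E17.5 libraries were low. Magel2, a MAGE protein deleted in Prader-Willi syndrome, took a course of its own. It had 287, 401 and 320 in WT E11.5, 1878, 1621 and 1434 in WT E13.5, 346, 270 and 280 in WT E15.5 and 111, 107 and 131 in WT E17.5. It rose by 2.29 ± 0.19 by E13.5 (limma adjusted p = 4.5e-08), fell by 2.46 by E15.5 (adjusted p = 3.5e-09) and fell by a further 1.35 by E17.5 (adjusted p = 3.0e-05), with no overlap between libraries at any step.

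Several of the genes that rose have known roles in neurons. Rasgrf1, an exchange factor that activates Ras in neurons, had 0, 1.85 and 2.92 normalized reads in WT E11.5, 41.3, 51.0 and 84.5 in WT E13.5, 1128, 841 and 1002 in WT E15.5 and 248, 165 and 190 in WT E17.5. It was at or under 3 reads in each E11.5 library, peaked at E15.5 and then fell by 2.30 (limma adjusted p = 0.0030). Its difference of E17.5 minus E11.5 was 6.48 ± 0.54 (adjusted p = 1.1e-09), which depends on the added 1 because the E11.5 values are so low. Ppp1r9a, which encodes neurabin, an actin-binding scaffold of synapses, had 2259, 1522 and 1773 in WT E11.5, 3965, 3918 and 4468 in WT E13.5, 5394, 4676 and 4938 in WT E15.5 and 7048, 7862 and 9724 in WT E17.5 (2.15 ± 0.26, limma adjusted p = 2.6e-07). Ndn, which encodes necdin, a MAGE protein of postmitotic neurons, had 2495, 4083 and 3496 in WT E11.5, 5383, 3902 and 10297 in WT E13.5, 6250, 6823 and 6407 in WT E15.5 and 8412, 8213 and 5005 in WT E17.5 (1.09 ± 0.27, adjusted p = 0.0012). Ppp1r9a separated E11.5 from every later day, while Ndn varied widely within E13.5.

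Snrpn encodes SmN, a splicing protein that takes the place of SmB in brain. It had 2294, 3353 and 3018 normalized reads in WT E11.5, 2749, 2573 and 3496 in WT E13.5, 5525, 4494 and 4888 in WT E15.5 and 6557, 6885 and 7078 in WT E17.5 (1.26 ± 0.13, limma adjusted p = 1.7e-08). Its rise began after E13.5, where the libraries still overlapped those of E11.5. Peg13, a non-coding RNA inside an intron of Trappc9, had 4423, 4160 and 4206 in WT E11.5, 4530, 4476 and 6207 in WT E13.5, 9930, 7596 and 8822 in WT E15.5 and 14067, 14181 and 19264 in WT E17.5 (1.88 ± 0.12, adjusted p = 2.7e-11). Its host Trappc9, a subunit of a vesicle tethering complex, rose less, by 0.92 ± 0.12 (limma adjusted p = 6.6e-07). Zrsr1, a splicing factor retrogene, rose by 0.91 ± 0.10 and Ube3a, the ubiquitin ligase lost in Angelman syndrome, by 0.84 ± 0.16. Kcnq1ot1, an antisense RNA that silences neighbouring genes, had 206, 226 and 236 in WT E11.5, 420, 841 and 358 in WT E13.5, 350, 548 and 473 in WT E15.5 and 353, 391 and 802 in WT E17.5 (1.11 ± 0.34, adjusted p = 0.0061), and its call was not made without WT E17.5 library C (0.74, adjusted p = 0.060).

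In bulk tissue, more RNA per cell and more cells of a type cannot be told apart. Over the same course the summed level of 14 postmitotic neuron markers was 471048 to 533732 in WT E17.5 and 69486 to 82405 in WT E11.5. All 14 of them rose, beside 38.4% of all genes. The summed level of 14 radial glia markers was 71109 to 82116 in WT E17.5 and 170770 to 175333 in WT E11.5, and that of the meninges and fibroblast genes was 5696 to 8499 in WT E17.5 and 33796 to 46947 in WT E11.5. The part of these cell types in the courses of the imprinted genes was not tested.

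**Figure D2:**
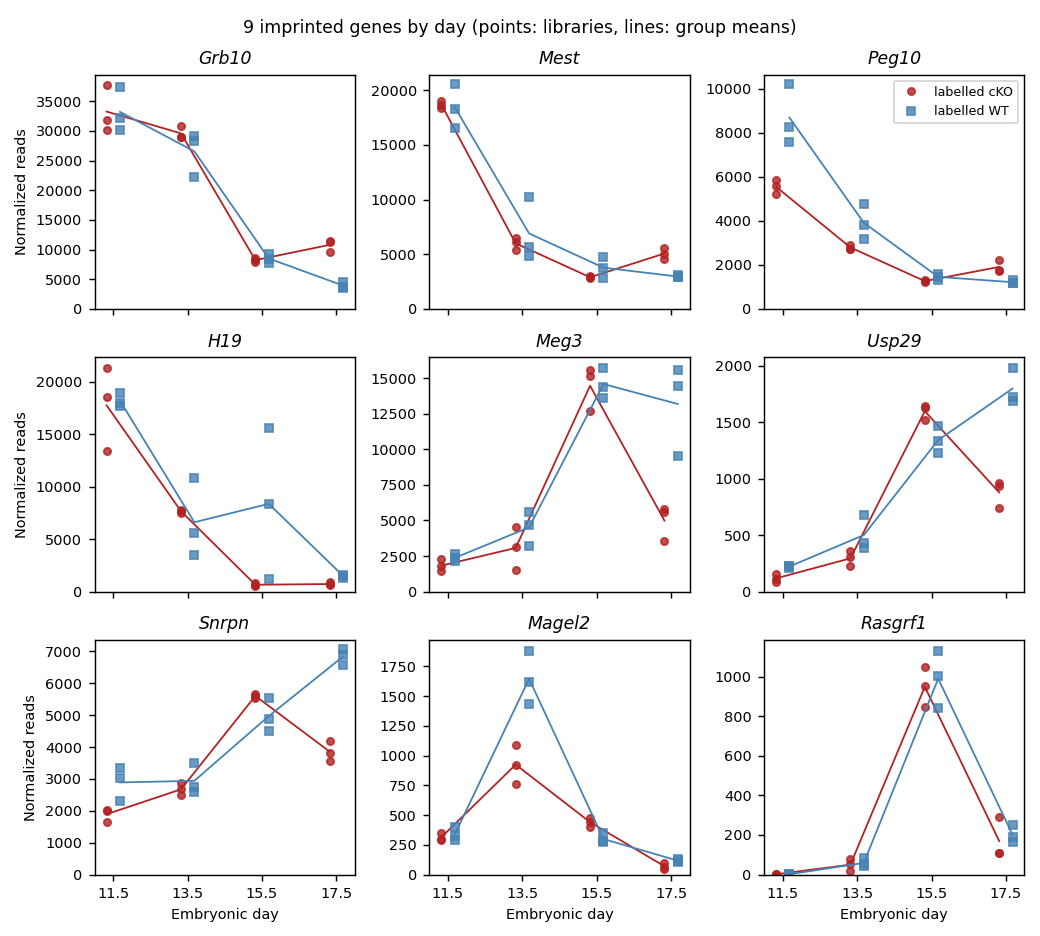
Normalized reads of 9 imprinted genes (linear axes from 0) by embryonic day. Points are libraries, lines join group means, and cKO points stand left of WT points on each day. Grb10, Mest and Peg10 fall with age in WT and stand higher in the libraries labelled cKO at E17.5. H19 is high in 2 of the 3 WT E15.5 libraries. Meg3, Usp29 and Snrpn rise with age in WT and stand lower in the libraries labelled cKO at E17.5.

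The steps between days were not alike. From E11.5 to E13.5, 12 genes rose and 9 fell in WT, where 55.3% of all genes passed the threshold (29.6% higher and 25.7% lower). From E13.5 to E15.5, 11 rose and 8 fell, beside 47.0% of all genes (24.2% higher and 22.8% lower). From E15.5 to E17.5, 4 rose and 10 fell, beside 32.1% of all genes (17.6% higher and 14.6% lower), but this last count rests on WT E15.5 libraries B and C. Without them 1 rose and 3 fell, beside 7.71% of all genes, and without the 5 C libraries 5 were called, beside 16.1%. Without B and C, H19 (0.35), Slc38a4 (0.84), Dlk1 (0.76) and Dcn (1.93) had differences of the opposite sign, none past the threshold (limma adjusted p = 0.68, 0.40, 0.39 and 0.26). With library A alone at E15.5 the drop came a step earlier, with E15.5 minus E13.5 at -2.33 for H19, -2.16 for Igf2, -2.05 for Dlk1, -3.44 for Slc38a4 and -6.54 for Dcn, each past the threshold (adjusted p = 0.00013, 0.00032, 0.0024, 7.3e-05 and 4.6e-05) with 1 library assumed to vary like the other groups, beside 35.0% of all genes.

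In cKO, 10 genes rose and 14 fell between E11.5 and E17.5, by label, beside 67.7% of all genes past the threshold (35.2% higher and 32.5% lower). The cKO and WT courses share no library. A set of 21 genes passed the threshold in the same direction in both, which is 87.5% of the 24 calls in cKO and 80.8% of the 26 in WT. Over all genes the same shares were 85.4% of the calls in cKO and 77.3% of those in WT, so the agreement is close to the background. Rian was the gene called in opposite directions, with -0.55 ± 0.16 in cKO (limma adjusted p = 0.0056) and 0.56 ± 0.16 in WT (adjusted p = 0.0046). The cKO call of Rian was not made without the 5 C libraries (-0.51, adjusted p = 0.053), beside 55.7% of all genes called.

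Neighbours in a cluster did not move as 1. The chromosome 12 cluster holds Dlk1 and the non-coding RNAs Meg3, Rian and Mirg on the same strand. Meg3 (chr12:109541001-109571726) had 2160, 2613 and 2343 normalized reads in WT E11.5, 3235, 5617 and 4694 in WT E13.5, 13616, 15738 and 14390 in WT E15.5 and 9530, 14476 and 15534 in WT E17.5 (2.45 ± 0.30, limma adjusted p = 2.9e-07). Rian, a host of small nucleolar RNAs, rose by 0.56 ± 0.16 over the course, and Mirg, a host of microRNAs, did not pass the threshold (-0.36 ± 0.25, adjusted p = 0.19). By label, a maternally read run of RNAs thus held a 5.45-fold rise, a 1.47-fold rise and a difference within the spread. Dlk1 upstream fell. Rian averaged 7455 in WT E11.5, 11000 in labelled WT E17.5 and 3587 in labelled cKO E17.5, so its direction depends on the E17.5 labels. Meg3 averaged 2372 in WT E11.5, 13180 in labelled WT E17.5 and 4990 in labelled cKO E17.5, so the size of its rise depends on them too.

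Peg3 and Usp29 start 146 bases apart and are read away from each other. Peg3, a zinc finger protein that acts in maternal behaviour in mice, had 2948, 3038 and 3703 normalized reads in WT E17.5 and 4292, 4047 and 4066 in WT E11.5, a difference that did not pass the threshold (-0.36 ± 0.21, limma adjusted p = 0.13). Usp29, a deubiquitinating enzyme on the opposite strand, had 213, 227 and 229 in WT E11.5, 432, 391 and 681 in WT E13.5, 1470, 1225 and 1333 in WT E15.5 and 1724, 1692 and 1980 in WT E17.5 (3.0 ± 0.20, adjusted p = 4.5e-11). Zim1, a zinc finger gene beside them, had 43.7, 70.5 and 65.2 in WT E11.5, 97.1, 120 and 106 in WT E13.5, 240, 680 and 454 in WT E15.5 and 297, 411 and 459 in WT E17.5 (2.69 ± 0.42, limma adjusted p = 7.9e-06). Peg10 and Sgce, which encodes epsilon-sarcoglycan, likewise start 98 bases apart on opposite strands, and Peg10 fell by 2.83 while Sgce did not pass the threshold (-0.08 ± 0.13, adjusted p = 0.57). A test of the difference between neighbours was not run.

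**Figure D3:**
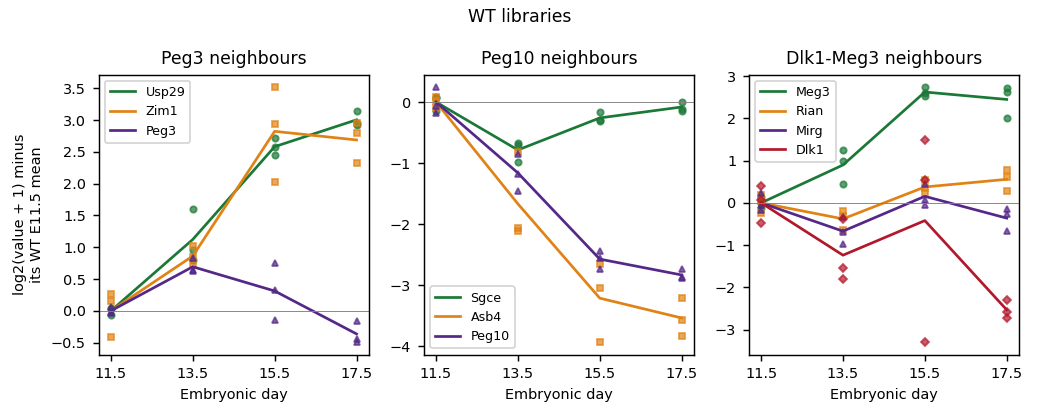
WT courses of neighbouring imprinted genes in 3 clusters, as log2(value + 1) minus the gene's WT E11.5 mean against embryonic day, with points for libraries and lines for group means. Usp29 and Zim1 end near 3 while Peg3 ends at -0.36, Peg10 and Asb4 fall while Sgce ends near 0, and Meg3 rises while Dlk1 falls.

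Shown are the promoters of 3 genes that moved together, of 1 that moved the other way and of 1 shared start. A promoter window of 300 bases (250 before the start and 50 after it, from RefSeq on GRCm38.p6) was held for 26 of the 33 genes, in 43 windows. The hexamer TGCCGC, which Zfp57, a zinc finger protein that keeps imprints, binds when it is methylated, was found on either strand in 20.9% of these windows and in 11.6% of the 32851 windows of all genes. It was in a window of Grb10, Igf2, Meg3, Mest, Nnat, Plagl1, Snrpn and Zim1. The Mest windows that hold it overlap almost wholly, so the same sites count more than once in the share. The windows of the members held a median of 11 CpG dinucleotides, against 7 over all windows. The hexamer itself holds a CpG, and the part of CpG content in its share was not tested. The motif AAGATGGC of Yy1, on either strand, was in 2.33% of the members' windows, all of it in Ube3a, and in 2.75% of all windows. A match is a string of letters in a window and not a measured site. Plagl1, Grb10 and Mest fell together in WT and were higher at E17.5 in the libraries labelled cKO, Meg3 took the opposite way in both, and the Peg3 window shares 263 bases with that of Usp29. Capitals mark TGCCGC or its reverse complement GCGGCA.
Plagl1, chr10:13090582-13090881, plus strand: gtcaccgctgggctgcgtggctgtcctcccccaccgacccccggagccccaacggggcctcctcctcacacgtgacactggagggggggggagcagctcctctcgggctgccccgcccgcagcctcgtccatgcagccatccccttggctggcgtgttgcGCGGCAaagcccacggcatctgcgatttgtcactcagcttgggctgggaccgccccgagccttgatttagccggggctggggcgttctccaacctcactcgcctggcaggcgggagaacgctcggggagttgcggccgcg
Grb10, chr11:12037371-12037670, minus strand: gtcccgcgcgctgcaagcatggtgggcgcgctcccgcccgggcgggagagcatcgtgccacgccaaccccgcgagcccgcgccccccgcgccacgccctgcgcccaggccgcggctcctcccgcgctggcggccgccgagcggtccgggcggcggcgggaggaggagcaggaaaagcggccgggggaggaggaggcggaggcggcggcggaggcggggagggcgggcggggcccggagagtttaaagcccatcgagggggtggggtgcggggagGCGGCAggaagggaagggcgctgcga
Mest, chr6:30737800-30738099, plus strand: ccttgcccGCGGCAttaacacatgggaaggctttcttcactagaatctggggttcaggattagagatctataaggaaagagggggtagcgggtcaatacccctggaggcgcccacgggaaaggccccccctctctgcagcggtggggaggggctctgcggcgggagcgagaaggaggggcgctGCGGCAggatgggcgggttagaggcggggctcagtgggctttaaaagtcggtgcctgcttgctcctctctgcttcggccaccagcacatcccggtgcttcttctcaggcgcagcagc
Meg3, chr12:109540746-109541045, plus strand: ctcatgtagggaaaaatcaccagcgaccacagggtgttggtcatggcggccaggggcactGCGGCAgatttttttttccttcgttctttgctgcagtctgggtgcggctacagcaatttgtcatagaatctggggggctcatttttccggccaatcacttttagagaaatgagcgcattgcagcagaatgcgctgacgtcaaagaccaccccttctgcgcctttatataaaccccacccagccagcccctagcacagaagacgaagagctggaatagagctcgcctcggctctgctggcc
Peg3, chr7:6730370-6730669, minus strand: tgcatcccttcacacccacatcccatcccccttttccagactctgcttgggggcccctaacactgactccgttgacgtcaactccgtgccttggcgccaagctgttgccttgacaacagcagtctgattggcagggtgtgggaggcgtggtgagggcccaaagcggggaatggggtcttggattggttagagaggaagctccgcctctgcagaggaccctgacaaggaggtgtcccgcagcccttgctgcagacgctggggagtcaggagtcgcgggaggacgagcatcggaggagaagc

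At E17.5, 5 of the 32 genes were higher and 10 lower in the libraries labelled cKO than in those labelled WT. Over all genes 40.4% passed the threshold (18.6% higher and 21.8% lower), so 15 of 32 is close to the background, and the median difference was -0.25 beside -0.04 over all genes tested. None of the 15 had overlapping libraries, which also holds for some imprinted genes not called. The share of all genes without overlap was not computed, so nothing about imprinted genes as a set is read from it. The maternally expressed genes gave 0 higher and 5 lower of 11. The lower ones were Meg3, Rian and Mirg, which share a cluster and a strand, and Zim1 and Ppp1r9a. The summed level over all 12 was 21470 to 28837 in libraries labelled cKO and 40574 to 54037 in those labelled WT. Much of that sum was Meg3 (mean 4990 in labelled cKO, 13180 in labelled WT) and Rian (3587 and 11000), so it does not describe maternally expressed genes in general. The paternally expressed genes gave 4 higher and 5 lower of 19.

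The 5 higher genes were Grb10, Mest, Plagl1, Peg10 and Nnat. Grb10 had 11444, 11312 and 9599 normalized reads in the libraries labelled cKO, against 4508, 3700 and 3562 in those labelled WT. The lowest labelled cKO library was more than 2 times the highest labelled WT library, and the difference was 1.46 ± 0.12, or 2.75-fold (limma adjusted p = 7.3e-09). Mest had 5057, 5545 and 4588, against 2910, 2868 and 3085 in labelled WT (0.77 ± 0.19, adjusted p = 0.0029). Plagl1 had 6419, 6624 and 5776, against 4855, 4108 and 3919 in labelled WT (0.55 ± 0.15, limma adjusted p = 0.0054). In each of these the labelled cKO libraries lay above the labelled WT ones. Peg10 had 1720, 2228 and 1770 in the libraries labelled cKO, against 1169, 1176 and 1288 in those labelled WT (0.65 ± 0.13, adjusted p = 0.00042). Nnat had 44615, 39660 and 41287, against 29595, 28456 and 27412 in labelled WT (0.55 ± 0.15, limma adjusted p = 0.0058). Igf2 itself did not follow them, with means of 2023 in labelled cKO and 1942 in labelled WT (0.04 ± 0.44, adjusted p = 0.95), and neither did Igf2r (-0.12 ± 0.22, adjusted p = 0.72).

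The 3 non-coding RNAs of chromosome 12 were lower. Rian had 3032, 3536 and 4193 normalized reads in the libraries labelled cKO, against 8987, 11304 and 12707 in those labelled WT. The difference was -1.61 ± 0.16, a 3.06-fold lower level (limma adjusted p = 1.5e-07). Meg3 had 3560, 5612 and 5799, against 9530, 14476 and 15534 in labelled WT (-1.40 ± 0.30, adjusted p = 0.00071). Mirg had 82.7, 103 and 91.2, against 173, 232 and 249 in labelled WT (-1.22 ± 0.25, limma adjusted p = 0.00047). In all 3 the highest labelled cKO library was below the lowest labelled WT library. Dlk1, the protein-coding gene of that cluster, did not differ beyond its spread, with 201, 150 and 281 in labelled cKO and 241, 196 and 179 in labelled WT (0.00 ± 0.73, adjusted p = 1). Malat1, an abundant nuclear non-coding RNA that is not imprinted and was looked at after its values were seen, had 4070, 5031 and 5183 in labelled cKO, against 8122, 10757 and 17556 in labelled WT, with no overlap between the groups. At E15.5, alone of the earlier days, its mean was higher in cKO, with 23802 against 16888 in WT. No test is given for Malat1, and a link to the chromosome 12 RNAs was not tested. Kcnq1ot1, the non-coding RNA of the Kcnq1 cluster, had 189, 207 and 229 in labelled cKO, against 353, 391 and 802 in labelled WT (-1.21 ± 0.34, limma adjusted p = 0.0071), and its call was not made without labelled WT library C (adjusted p = 0.065).

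Of the Peg3 cluster, Zim1 had 73.6, 96.8 and 127 normalized reads in the libraries labelled cKO, against 297, 411 and 459 in those labelled WT. With -1.97 ± 0.42 (limma adjusted p = 0.00072) it had the largest difference among the 15 genes called. Usp29 had 741, 959 and 937, against 1724, 1692 and 1980 in labelled WT (-1.04 ± 0.20, adjusted p = 0.00035), while Peg3 did not pass the threshold (-0.13 ± 0.21, adjusted p = 0.67). The difference between these neighbours was not tested.

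In the Prader-Willi and Angelman region of chromosome 7, Snrpn had 3569, 3800 and 4191 normalized reads in the libraries labelled cKO, against 6557, 6885 and 7078 in those labelled WT (-0.83 ± 0.13, limma adjusted p = 2.2e-05). Magel2 had 49.1, 65.2 and 94.1, against 111, 107 and 131 in labelled WT (-0.78 ± 0.19, adjusted p = 0.0026). Both groups were apart in each gene. Ndn with 4626, 3884 and 4856 in labelled cKO and 8412, 8213 and 5005 in labelled WT did not pass the threshold (-0.66 ± 0.27, adjusted p = 0.058), and neither did Ube3a (-0.30 ± 0.16, adjusted p = 0.15) or Mkrn3, a ubiquitin ligase of puberty timing (-0.11 ± 0.10, adjusted p = 0.42).

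Peg13 had 8322, 9170 and 9781 normalized reads in the libraries labelled cKO, against 14067, 14181 and 19264 in those labelled WT (-0.79 ± 0.12, limma adjusted p = 3.1e-05), while its host Trappc9 did not pass the threshold (-0.04 ± 0.12, adjusted p = 0.81). Ppp1r9a had 3817, 5222 and 5781, against 7048, 7862 and 9724 in labelled WT (-0.74 ± 0.26, limma adjusted p = 0.027). The call of Ppp1r9a was not made without labelled cKO library A (0.14) or labelled WT library B (0.053) or C (0.11), nor without the 5 C libraries of other groups (0.063). With those 5 left out, 14 of the 32 genes were still called, 5 higher and 9 lower, beside 33.2% of all genes. Leaving out WT E15.5 libraries B and C, which leaves the E17.5 differences as they are and changes the shared spread, added H19 (-1.06, adjusted p = 0.0044) and Slc38a4 (-1.83, adjusted p = 0.00075) as lower and Asb4 (0.69, adjusted p = 0.042) as higher, beside 39.7% of all genes.

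Cell type markers also differed between these groups, where 18.6% of all genes were higher and 21.8% lower in the libraries labelled cKO. All 14 tested postmitotic neuron markers but 1 were lower in the libraries labelled cKO, with summed levels of 193343 to 241925 in labelled cKO against 471048 to 533732 in labelled WT. Radial glia markers were higher in 11 of 14, with sums of 179640 to 192472 in labelled cKO against 71109 to 82116 in labelled WT. Intermediate progenitor markers were higher in 6 of 8, with sums of 38002 to 47949 in labelled cKO against 20958 to 26081 in labelled WT. Microglia markers were higher in 6 of 10 (2450 to 2751 in labelled cKO, 1573 to 1729 in labelled WT) and red blood cell genes lower in 6 of 10 (4221 to 4650 in labelled cKO, 10699 to 22683 in labelled WT). No gene of these lists was at 0 in all 3 libraries of either group. Their part in the differences of the imprinted genes was not tested.

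**Figure D4:**
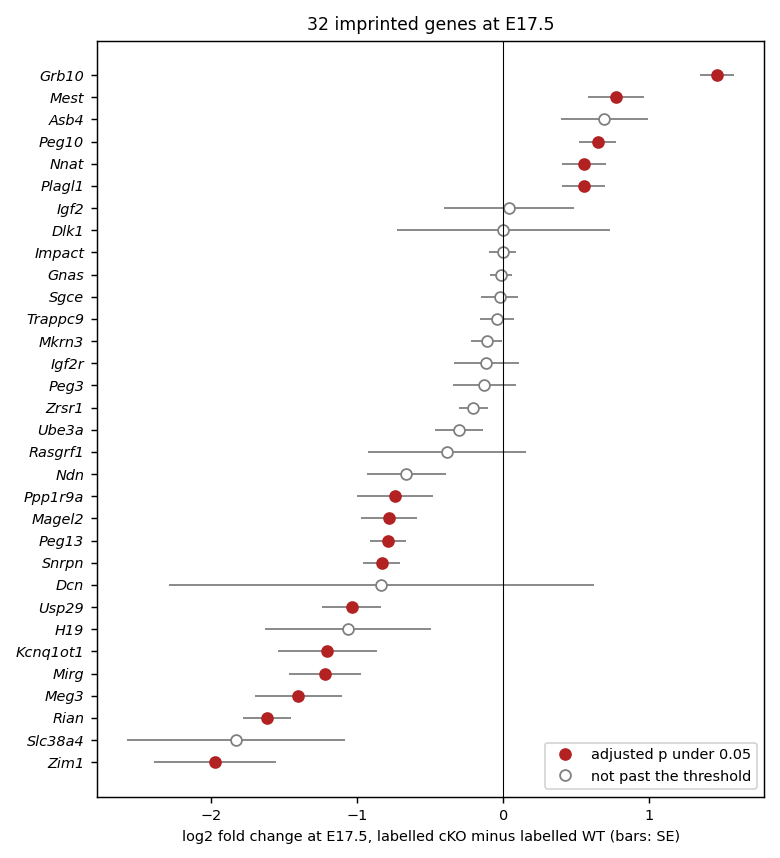
The log2 fold change at E17.5, libraries labelled cKO minus libraries labelled WT, of the 32 tested imprinted genes (points) with standard errors (bars). Filled points passed an adjusted p of 0.05. They run from Zim1 at -1.97 to Grb10 at 1.46, with 10 on the lower and 5 on the higher side.

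At E11.5, 3 of the 32 genes were lower in cKO and 0 were higher, beside 3.13% of all genes past the threshold (0.611% higher and 2.52% lower). Usp29 had 84.5, 154 and 115 normalized reads in cKO, against 213, 227 and 229 in WT (-0.96 ± 0.20, limma adjusted p = 0.0090). Snrpn had 2013, 1663 and 1999 in cKO, against 2294, 3353 and 3018 in WT (-0.60 ± 0.13, adjusted p = 0.0083). Peg10 had 5843, 5587 and 5217 in cKO, against 10198, 7594 and 8285 in WT (-0.64 ± 0.13, limma adjusted p = 0.0062). The groups did not overlap in any of the 3, nor in some imprinted genes not called. The share of all genes without overlap was not computed. Without the 2 C libraries of E11.5 and the 3 others near a weighted sum, the values were -0.94, -0.60 and -0.62 but none was called (adjusted p = 0.32, 0.27 and 0.26), beside 0.554% of all genes.

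Single libraries also decided E11.5 calls. Usp29 was not called without cKO library A (adjusted p = 0.067), nor Snrpn without WT library B (0.084) or C (0.055). Postmitotic neuron markers summed to 52372 to 53387 in cKO and 69486 to 82405 in WT on this day, and 13 genes of the ventral forebrain to 594 to 1004 in cKO and 7885 to 9134 in WT. Their part in these differences was not tested.

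At E13.5, 8 of the 32 genes were lower in cKO and 1 was higher, beside 22.3% of all genes (9.79% higher and 12.5% lower). Magel2, at the peak of its course, had 758, 1089 and 924 normalized reads in cKO, against 1878, 1621 and 1434 in WT (-0.84 ± 0.19, limma adjusted p = 0.0056). Ppp1r9a had 1402, 3408 and 2252, against 3965, 3918 and 4468 in WT (-0.90 ± 0.26, adjusted p = 0.020). Usp29 had 223, 359 and 304, against 432, 391 and 681 in WT (-0.74 ± 0.20, limma adjusted p = 0.015), and its neighbour Peg3 had 3190, 5515 and 4112, against 6420, 7316 and 6351 in WT (-0.68 ± 0.21, adjusted p = 0.029). In these 4 the cKO libraries were all below the WT libraries, with cKO library A lowest in each.

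Ube3a had 3418, 5827 and 4677 normalized reads in cKO E13.5, against 6494, 7223 and 7059 in WT (-0.61 ± 0.16, limma adjusted p = 0.013). Trappc9 had 1531, 1254 and 1355, against 1861, 1882 and 2050 in WT (-0.49 ± 0.12, adjusted p = 0.0079), and Peg13 in its intron had 3759, 3574 and 3617, against 4530, 4476 and 6207 in WT (-0.46 ± 0.12, limma adjusted p = 0.014). Peg10 had 2922, 2720 and 2730, against 3152, 4763 and 3819 in WT (-0.47 ± 0.13, adjusted p = 0.016). The gene that was higher was Impact, a regulator of the translation kinase GCN2, with 1113, 1191 and 1106 in cKO and 884, 897 and 930 in WT (0.33 ± 0.09, limma adjusted p = 0.016). No library overlapped between the groups in any of these 5. Some imprinted genes not called on this day had no overlap either, and the share of all genes without overlap was not computed.

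Without the 5 C libraries none of the 9 was called at E13.5, with adjusted p from 0.069 for Magel2 to 0.14 for Peg3, beside 2.64% of all genes, while the differences ran from -0.91 for Ppp1r9a to 0.35 for Impact. Leaving out 1 library at a time gave 5 to 13 calls, the 5 without cKO library A and also without WT library C. Shares over all genes are not given for these fits, so the range is not particular to imprinted genes. Peg3 was not called on leaving out any WT library, cKO library A or cKO library C of this day, nor Peg10 without WT library B or cKO library C. With all 24 libraries, 12.5% of all genes were lower in cKO on this day. Postmitotic neuron markers were then lower in 7 of 14 (sums of 71083 to 77803 in cKO and 105184 to 161246 in WT). Intermediate progenitor markers were lower in 5 of 8 (32567 to 35285 in cKO and 44532 to 48743 in WT). Ventral forebrain genes were lower in 9 of 12 (669 to 1633 in cKO and 2063 to 6550 in WT over 13). Their part in these differences was not tested.

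At E15.5, 3 of the 32 genes were lower in cKO and 0 were higher, beside 2.52% of all genes (0.833% higher and 1.68% lower). H19 had 575, 811 and 605 normalized reads in cKO, against 1176, 15576 and 8375 in WT (-3.03 ± 0.57, limma adjusted p = 0.0052). Igf2 had 1038, 1375 and 1131, against 1347, 8766 and 4912 in WT (-1.72 ± 0.44, adjusted p = 0.041). Dlk1 had 101, 150 and 119, against 120, 3299 and 1724 in WT (-2.85 ± 0.73, limma adjusted p = 0.038). In Igf2 and Dlk1, WT library A lay inside the cKO range, and in all 3 the difference followed WT libraries B and C. Without those 2 libraries the values were -0.84, -0.20 and 0.02 and none of the 32 was called (adjusted p = 1 for each of the 3), beside 0.331% of all genes, and without the 5 C libraries none was called either, beside 0.223%. On the recovered reads edgeR called 5, beside 4.38% of all genes, and DESeq2 7, beside 5.47%. Leaving out 1 library at a time gave 1 to 5 calls, with 1 call without WT library B or C or any cKO library of this day and 5 without WT library A. The matching shares over all genes are not given.

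WT E15.5 library B was set against library A to see which imprinted genes stood higher beside the non-neural markers. A level in B more than 2 times that in A, with 1 added to both, was seen in 7 of the 32 genes and in 8.38% of all genes, and 0 of the 32 were lower by the same fold. Dcn stood at 4520 in B and 6.84 in A, Slc38a4 at 552 in B and 19.5 in A, and Dlk1 at 3299 in B and 120 in A. The others were H19 (15576 in B and 1176 in A), Igf2 (8766 in B and 1347 in A), Zim1 (680 in B and 240 in A) and Asb4 (112 in B and 45.9 in A). The next gene under the fold was Peg3 with 6974 in B and 3745 in A. The collagen gene Col1a1 stood at 34888 in B and 16658 in C, and at 51.8 in A. These are single libraries, so the ratios have no replicate check.

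**Figure D5:**
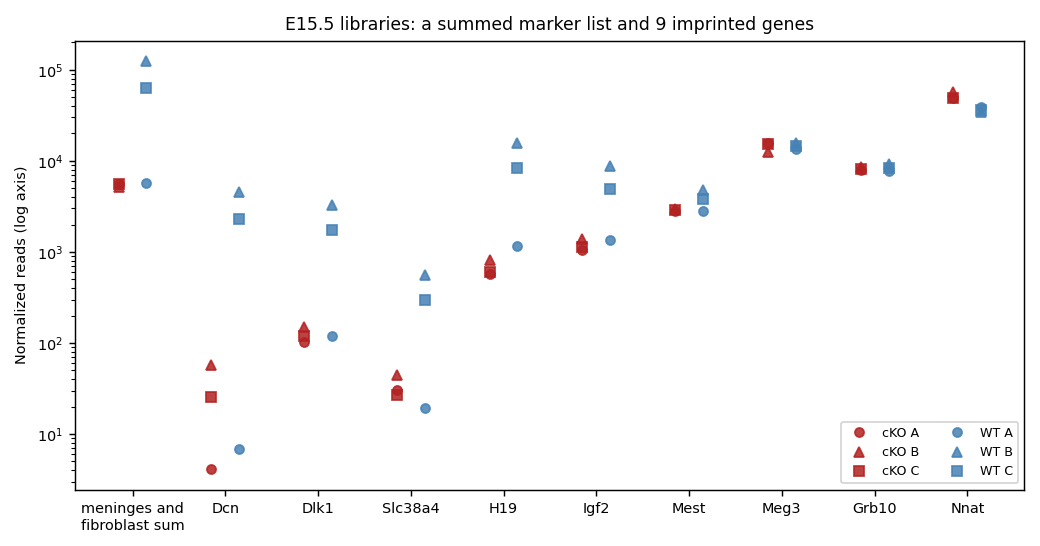
Normalized reads (log axis) of the 6 E15.5 libraries, cKO left of WT, for the sum of 14 meninges and fibroblast genes and for 9 imprinted genes. WT libraries B and C stand far above the other 4 in the marker sum, Dcn, Dlk1, Slc38a4, H19 and Igf2, and close to them in Meg3, Grb10 and Nnat.

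The difference between cKO and WT itself varied with the day in 14 of the 32 genes by limma's joint F test, beside 32.2% of all genes. From the earliest to the latest day Grb10 had 0.00, 0.17, -0.04 and 1.46, each ± 0.12 (limma adjusted p = 1.8e-06). Peg10 had -0.64, -0.47, -0.20 and 0.65 over the 4 days, in order of age (adjusted p = 8.2e-05). Rian had -0.50, -0.17, -0.01 and -1.61 (limma adjusted p = 8.2e-05), Snrpn had -0.60, -0.13, 0.18 and -0.83 (adjusted p = 0.00070), and Magel2 had -0.09, -0.84, 0.56 and -0.78 (adjusted p = 0.0011). These 5 were also the genes called without the 5 C libraries, beside 13.9% of all genes, and without WT E15.5 libraries B and C 9 were called, beside 22.5%. Because E17.5 goes against the labels in Prdm16, a change of sign at E17.5 cannot be told apart from a change in what the labels stand for.

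Averaged over the 4 days by label, with E17.5 and its doubt about the labels included, 2 genes were higher and 15 lower in cKO, beside 35.6% of all genes (16.2% higher and 19.4% lower). The higher genes were Grb10 (0.40 ± 0.06) and Nnat (0.28 ± 0.08), and the 3 lowest were Zim1 (-1.24 ± 0.21), Slc38a4 (-1.12 ± 0.37) and Dlk1 (-1.02 ± 0.36). Slc38a4 (-0.40, limma adjusted p = 0.16) and Dlk1 (-0.31, adjusted p = 0.24) were not called without WT E15.5 libraries B and C, and Dlk1 was lost on leaving out any of 10 single libraries, with values of -1.38 to -0.79. Zim1 stood below WT in the mean on all 4 days by label, though it passed the threshold only at E17.5 among the single days. At E15.5 WT library A (240) lay inside the cKO range of 195 to 252, with 680 in B and 454 in C. An average over E11.5, E13.5 and E15.5 alone, added after seeing the data, called 0 genes as higher and 7 as lower, beside 11.1% of all genes. These were Peg10 (-0.44), Usp29 (-0.48), Zim1 (-0.99), Peg3 (-0.45), Peg13 (-0.25), Sgce (-0.25) and Dlk1 (-1.37), while Grb10 was at 0.04 (limma adjusted p = 0.71) and Nnat at 0.19 (adjusted p = 0.16). This average includes WT E15.5 libraries B and C, which stood far above library A in Zim1 and Dlk1. With the 5 C libraries left out 7 genes were called, 1 higher and 6 lower, beside 17.1% of all genes.

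Among 23 genes that set or keep imprints, 20 were tested. At E17.5, 4 were higher and 3 lower in the libraries labelled cKO, beside 40.4% of all genes called. Uhrf1, which brings the maintenance methyltransferase to newly copied DNA, averaged 5056 ± 176 normalized reads in labelled cKO and 1840 ± 266 in labelled WT (SD, n = 3 each), a difference of 1.47 ± 0.13 (limma adjusted p = 2.8e-08). Zfp57 averaged 6052 ± 585 in labelled cKO and 10353 ± 1006 in labelled WT (-0.77 ± 0.15, adjusted p = 0.00026). Hells, a chromatin remodeller needed for DNA methylation (1.13 ± 0.10), and Dnmt3b, a de novo methyltransferase (0.66 ± 0.12), were higher. Dnmt1, the maintenance methyltransferase itself, did not pass the threshold (-0.07 ± 0.17, limma adjusted p = 0.79). In the WT course 9 of the 20 rose and 8 fell, beside 74.9% of all genes, with Zfp57 at 2.22 ± 0.15 and Uhrf1 at -2.81 ± 0.13. At E13.5, 1 was higher and 5 lower in cKO, beside 22.3% of all genes, among them Tet1, Tet2 and Tet3, which oxidise methylated cytosine (-0.79 ± 0.20, -1.01 ± 0.20 and -0.76 ± 0.13), and without the 5 C libraries 1 was lower.

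Of 18 other ligands, receptors and binding proteins of the insulin-like growth factor axis, 14 were tested. At E17.5, 3 were higher and 3 lower in the libraries labelled cKO, again beside 40.4% of all genes. Pappa, a protease that frees IGF from its binding proteins, averaged 199 ± 20.5 normalized reads in labelled cKO and 12.1 ± 4.92 in labelled WT (SD, n = 3 each), with a difference of 3.99 ± 0.35 (limma adjusted p = 2.6e-08). Its relative Pappa2 (-1.91 ± 0.41) and the binding proteins Igfbp3 (-1.77 ± 0.22) and Igfbp5 (-1.57 ± 0.32) were lower. In the WT course 7 rose and 6 fell, beside 74.9% of all genes, with Pappa at -5.70 ± 0.35 and Igf1r, the receptor of IGF1 and IGF2, at 2.25 ± 0.40. At E13.5 Igf1r had a mean of 1152 ± 448 in cKO, against 2887 ± 185 in WT (-1.39 ± 0.40, limma adjusted p = 0.019). Insr and Irs2 were lower too, 3 of 14 beside 22.3% of all genes, but without the 5 C libraries 1 of the 14 was called.

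The reads of some of these genes may be shared with a gene on the other strand, since no source used here gives the strand setting of the counting. Annotated exons overlapped on opposite strands for Mest and Copg2 over 912 bases, Ube3a and Snhg14 over 1803, and Zrsr1 and Commd1 over 412. Gnas (the stimulatory G protein alpha subunit) overlapped the gene model Gm20721 over 1469 and Nespas over 988. The overlap was 121 for Kcnq1ot1 and Kcnq1, and 98 for Igf2 and Igf2os. Snrpn overlapped the gene model Gm38393 over 589 bases on the same strand.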

How the data were processed

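PolyA-selected RNA of embryonic cortical ventricular zone was sequenced in 24 libraries with a stranded TruSeq kit, per the labels' protocols. The deposited table holds, for 22529 genes, the authors' normalized read counts, a signal made of reads over a size factor per library. The submitters' processing notes name mm10 (GRCm38), DESeq 1.22.1, HTSeq 0.5.3, STAR 2.5.0a and cutadapt 1.6; no source used here gives their role, their order, the annotation or how strand was counted. Values were whole multiples of 1 read, so reads could be recovered, 100.0% of them whole within 0.01, from 25639836 to 38879931 per library. Of the identifiers, 22411 matched GENCODE M21, which gave coordinates and merged exon lengths on GRCm38. Promoter windows are RefSeq's on GRCm38.p6.

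Values were transformed to log2(value + 1), which understates changes of low genes, and fitted with limma 3.58.1 (R 4.3.3, variance trend, 1 mean for each of 8 groups, all 24 libraries). Genes with at least 3 libraries of 10 or more (17518) were tested two-sided, with Benjamini-Hochberg adjustment over all of them and a threshold of 0.05. The fit was tested on simulated data. Differences are cKO minus WT and later minus earlier day. The alternatives were added values of 0.5 and 5, dropping the filter or asking for a mean of 50, TMM factors, no trend, only the groups compared, a replicate block by letter, each library left out, the 5 C libraries left out, WT E15.5 libraries B and C left out, and edgeR 4.0.16 and DESeq2 1.42.0 on the recovered reads. An average without E17.5 was added after seeing the data. Library values are given for each gene past the threshold between cKO and WT on a single day or with a WT difference of at least 1 over the course, the others in counts, and up to 4 genes of each further list. The members, lists and tests were chosen with earlier results of these data known.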

Additional observations from a re-analysis of the deposited data

Results flagged for a closer look

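The difference between cKO and WT changed with the day, by limma's joint F test over 4 days, in 14 of the 32 tested genes. The Benjamini-Hochberg adjusted p was 1.8e-06 for Grb10, 8.2e-05 for Peg10, 8.2e-05 for Rian, 0.0007 for Snrpn, 0.0011 for Magel2 and 0.0047 for Usp29. It was 0.0068 for Impact, 0.0078 for Peg13, 0.01 for H19, 0.015 for Mest, 0.042 for Kcnq1ot1, 0.042 for Mirg, 0.048 for Trappc9 and 0.049 for Plagl1. Over all genes 32.2% passed this test. Without the 5 C libraries the test was passed by Grb10, Peg10, Rian, Snrpn and Magel2, and that of H19 was not (adjusted p = 0.20). The E17.5 libraries go against their labels in Prdm16, so a difference between E17.5 and the other days cannot be told apart from a change in what the labels stand for.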

How the results depend on the processing

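The counts of genes called at E17.5, in the WT and cKO courses of E17.5 minus E11.5 and in the 2 earlier WT steps stayed within 1.5 times under every alternative. With only the groups compared, the count was 0 at E11.5 (8 at an unadjusted limma p under 0.05), 1 at E13.5 and 1 at E15.5. Without the 5 C libraries it was 0 at E11.5, 0 at E13.5 and 0 at E15.5, where 5, 11 and 4 of the 32 had an unadjusted limma p under 0.05. It was then 7 for the average, 5 for the differences between days and 5 for WT E17.5 minus E15.5. With all 24 libraries the count was 7 for the average without E17.5, an alternative chosen after seeing the data. Without WT E15.5 libraries B and C it was 0 at E15.5 (1 at an unadjusted p under 0.05), 9 for the differences between days and 4 for WT E17.5 minus E15.5. At E15.5 it was also 1 without the trend, 5 with edgeR and 7 with DESeq2. Leaving out 1 library at a time gave 5 to 13 calls at E13.5, with 5 without cKO E13.5 library A or WT E13.5 library C. At E15.5 it gave 1 to 5, with 5 without WT E15.5 A and 1 without WT E15.5 B or C, any cKO E15.5 library, E11.5 library C of either group, cKO E13.5 C, WT E17.5 B or cKO E17.5 A. For WT E17.5 minus E15.5 it gave 5 to 17, with 5 without WT E15.5 B, 6 without WT E15.5 C, and 8, 7 and 9 without WT E17.5 A, B and C. Without libraries B and C, Dlk1 in cKO minus WT at E15.5 (0.019) and in WT E15.5 minus E13.5 (-2.05), and H19 (0.35), Dcn (1.93), Slc38a4 (0.84) and Dlk1 (0.76) in WT E17.5 minus E15.5 reversed, with 1 WT E15.5 library left. Over the libraries left out in turn, H19 in WT E15.5 minus E13.5 ran from -0.92 to 0.95 and Dcn from -2.44 to 2.15, reversed without library A. Beyond the smaller number of samples, the cause of these changes was not tested. Calls over all genes moved with the setting too, at E13.5 from 22.3% to 2.64% without the 5 C libraries. Shares over all genes are not given here for counts at an unadjusted p. Nor are they given for single libraries left out, only the groups compared, no trend or the replicate block. Those counts therefore have no background. With the letter as a replicate block, 2 of 165 calls were lost and 6 gained, and the count was 16 at E17.5. Of 12 letters compared, 4 correlated best with their own and 1 correlation was over 0.1. These are correlations of deviations from means of 3 libraries, and 5 C libraries lie near sums of A and B. They therefore cannot settle whether the letters pair embryos. Depth limits Phlda2, with no library above 3.86, and Rasgrf1 at E11.5.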

Other observations

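A further list of 44 imprinted genes held 36 that were tested. In the WT course 9 rose and 20 fell between E11.5 and E17.5, beside 74.9% of all genes past the threshold, with a median difference of -0.46 beside 0.02 over all genes. Htr2a, a serotonin receptor of cortical neurons, rose by 4.45 ± 0.41 (limma adjusted p = 5.0e-09). Th, the first enzyme of dopamine synthesis, averaged 1.11 ± 1.10 normalized reads in WT E17.5 and 214 ± 19.3 in WT E11.5 (SD, n = 3 each, limma adjusted p = 9.8e-07). At E17.5, 6 were higher and 7 lower in the libraries labelled cKO, beside 40.4% of all genes called. Pon2, a paraoxonase, averaged 1085 ± 109 normalized reads in labelled cKO and 392 ± 6.11 in labelled WT, and Peg12 averaged 704 ± 81.3 in labelled cKO and 249 ± 38.5 in labelled WT (SD, n = 3 each, limma adjusted p = 1.3e-09 and 3.0e-07). Htr2a averaged 41.2 ± 10.6 in labelled cKO and 217 ± 11.6 in labelled WT (-2.40 ± 0.41, limma adjusted p = 8.3e-05). At E15.5 Slc22a3, an organic cation transporter, was the 1 gene called, beside 2.52% of all genes, as lower in cKO (-3.52 ± 0.63, limma adjusted p = 0.0035). Without the 5 C libraries, and likewise without WT E15.5 libraries B and C, 0 of the 36 were called (each time 1 had an unadjusted p under 0.05).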
